A study of Mus musculus with 6 samples.

Results

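The genes described here are 7 genes of antigen presentation on major histocompatibility complex (MHC) class II in the mouse retina: H2-Aa, H2-Ab1, H2-Eb1, H2-DMa, H2-DMb1, Cd74 and Ciita. They were taken by symbol from a count table of 23420 genes, and all 7 were found. The table holds 6 libraries of retinal messenger RNA, 2 from control retinas, 2 from retinas exposed to white light and 2 from light-exposed retinas of mice given minocycline, a tetracycline antibiotic. Per the labels, light was given at 10000 lux for 1 h and retinas were analysed after 4 days, and minocycline was injected intraperitoneally at 45 mg/kg daily for 4 days. The labels name CD1 mice, with no treatment for the controls, whereas the methods of the study name adult BALB/cJ mice of both sexes, a brighter light and injections that began on the day before the exposure. No vehicle injection is named for the control or light groups, so an effect of injection cannot be told apart from that of minocycline. The 2 libraries of each group are biological replicates per the methods, and whether each came from 1 or several animals is not given in the sources used here. Both minocycline columns carry the same replicate number in the table and are called A and B here.

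MHC class II molecules are pairs of an alpha and a beta chain that carry peptides from taken-up proteins to the cell surface, where CD4+ T cells read them. H2-Aa and H2-Ab1 encode the 2 chains of mouse I-A, and H2-Eb1 encodes the beta chain of I-E. Cd74, the invariant chain, fills the groove of new molecules and guides them to endosomes, and H2-DMa and H2-DMb1 encode the chains of H2-M, which helps exchange the last fragment of Cd74 for peptide. Ciita is the coactivator that switches the whole set on. In the resting retina few cells carry class II, and microglia, the resident macrophages, are among the cells known to gain it after injury.

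Class II transcripts were rare in control retina and higher after light. The summed level of the 7 genes was 4.71 ± 0.381 CPM (counts scaled to a common library size; mean ± SD, n = 2) in controls, 15.7 ± 2.64 after light and 7.43 ± 0.997 after light with minocycline. H2-Aa, H2-Eb1, Cd74 and H2-Ab1 rose after light in edgeR's quasi-likelihood test, with adjusted p from 0.0131 to 0.0246. Of all tested genes 7.52% were called higher. H2-Aa, H2-Eb1 and Cd74 could be tested only because they were high in the light libraries. None of the 5 tested between light with minocycline and light passed. These 5 were lower in both minocycline libraries than in both light libraries, as were 28.7% of tested genes. H2-DMb1 and Ciita were too low to be tested.

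Class II promoters carry a conserved arrangement of an X box, bound by the RFX complex, followed by a Y box, bound by NF-Y, through which Ciita is recruited. The stretches below are shown since these genes share a regulator, and since H2-Eb1 and H2-Aa differ in whether the letters searched occur. Capitals mark the X box core, searched as AACNGATG, and the Y box, searched as ATTGG, each on both strands. The 3 stretches are 115 bases each, end 16 bases before the start site, are written 5′ to 3′ in the direction of transcription, and come from RefSeq for GRCm38.p6.
H2-Eb1, chr17:34305737-34305851, plus strand: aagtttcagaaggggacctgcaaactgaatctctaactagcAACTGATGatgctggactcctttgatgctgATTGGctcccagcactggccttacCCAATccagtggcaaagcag
H2-DMb2, chr17:34145119-34145233, plus strand: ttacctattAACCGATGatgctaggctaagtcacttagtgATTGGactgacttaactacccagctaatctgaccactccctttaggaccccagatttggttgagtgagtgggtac
H2-Aa, chr17:34287839-34287953, minus strand: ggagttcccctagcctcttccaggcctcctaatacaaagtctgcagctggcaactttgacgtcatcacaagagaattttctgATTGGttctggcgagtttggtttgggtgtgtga
In H2-Eb1 the X box core is followed by a Y box after a gap of 22 bases, and in H2-DMb2, the near-copy of H2-DMb1, after 23 bases. The H2-DMb1 window has the same order with a gap of 23 bases, and there the letters lie in what GENCODE annotates as its 5′ UTR. The H2-Aa stretch held a Y box and no match to the X box core, and of 2 windows for H2-DMa 1 held a Y box. No H2-Ab1, Ciita or Cd74 window was used here. Among 32851 promoter windows of the same length, from 250 bases before to 50 after each start, 2.32% held the X box core, 37.4% the Y box, and 0.0517%, that is 17 windows, held an X box core within 40 bases before a Y box. Those 17 include H2-Eb1, H2-Eb2, H2-DMb1 and H2-DMb2. The X box core searched was shortened after the promoters had been seen, so these genes among the 17 are not independent evidence. The letters TTCNNNGAA, the core of a gamma-activated site, occurred in 8.3% of all windows and, among the class II windows, in that of H2-DMb2. These matches describe the letters and are not measurements of binding.

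Depth set what could be read for such rare transcripts. Libraries held 15205930 to 22856922 counts, and a floor of 3 counts corresponded to 0.131 to 0.213 CPM. Control library 1 held 77778 Xist counts and 11 counts over 4 Y-linked genes, whereas the other 5 held 25 to 188 and 6532 to 12858, so sex differed within the control group. Summed markers of other tissues were higher in both minocycline libraries than in any control or light library. Of the corneal, pigment cell and stroma genes tested, 1 of 5, 0 of 5 and 0 of 4 were called higher than with light alone. In that edgeR comparison 2 of 14750 tested genes were called higher. Corneal epithelium markers summed to 2.18 to 15.6 CPM in control and light libraries and to 194 and 278 CPM with minocycline, and pigment cell markers to 15.8 to 71.8 CPM and then to 303 and 1378 CPM. Stroma markers summed to 2.10 to 5.92 CPM and then to 26.0 and 123 CPM. Their part in the minocycline comparisons was not tested.

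**Figure D1:**
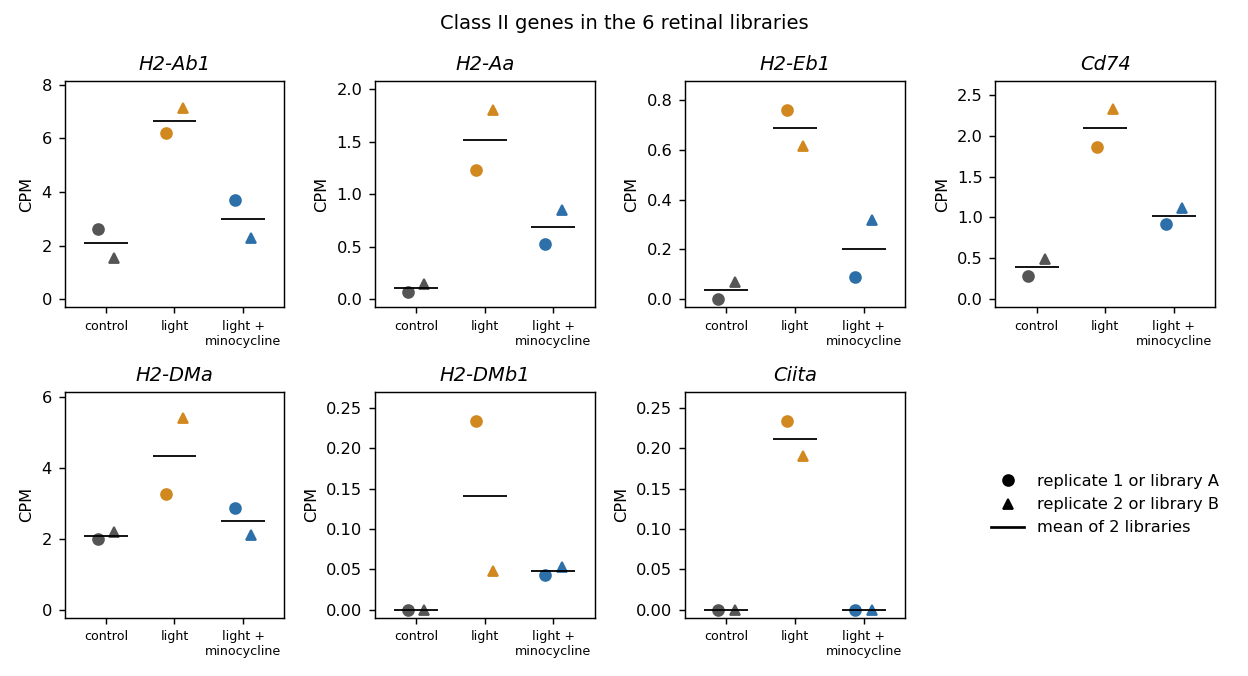
Level of each of the 7 class II genes (vertical axis, CPM, linear from 0) in the 2 libraries of each group; symbols are single libraries and lines are means. Both light libraries lie above both control libraries for the 5 genes tested, as they do for 30.6% of tested genes. H2-DMb1 and Ciita, which were not tested, rest on at most 4 counts a library.

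The first comparison, light against control, asks which transcripts of the retina follow an acute light exposure. It tested 14349 genes, of which 1079 were higher and 545 lower at an adjusted p under 0.05. Of the 7 class II genes 5 passed the filter on low counts and 4 of these were called, all higher, against a background of 7.52% of tested genes called higher. With the study's cutoff added, a log2 fold change of at least 2, 3 were called, against 2.89%. This applies the cutoff to edgeR estimates, whereas the study used DESeq2. With DESeq2 without shrinkage, H2-Aa and Cd74 had an adjusted p under 0.05 and a change above 2, and with shrinkage no class II estimate reached 2. H2-Aa, H2-Eb1 and Cd74 passed the filter only through the light libraries, so that they could be tested only because they were high there. H2-Ab1 and H2-DMa passed it in every group, and of these H2-Ab1 was called. The 5 tested genes had a median log2 fold change of 2.42, beside 0.0025 over all tested genes. In the 5 tested genes both light libraries lay above both control libraries, as they did for 30.6% of tested genes. H2-DMb1 and Ciita, not tested, had 0 counts in both controls, so that any read after light set them above. The calls rested on both controls: without control library 1 or without control library 2, 0 class II genes were called in edgeR, where 4 and 57 genes were called in the whole table. Without light library 2, 2 were called, H2-Ab1 and H2-Aa, and without light library 1, 4 were called, with H2-DMa among them and H2-Eb1 not tested.

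H2-Ab1, the I-A beta chain, was the highest of the set after light, while in controls it and H2-DMa had 59 counts each. It had 37 and 22 counts in control libraries 1 and 2, 106 and 150 in light libraries 1 and 2, and 85 and 43 in minocycline libraries A and B. The light libraries stood above all others, and the control and minocycline libraries overlapped once scaled to CPM. Mean levels were 2.09 ± 0.764, 6.66 ± 0.658 and 2.99 ± 1.01 CPM (SD, n = 2). The log2 fold change after light was 1.67 with a standard error of 0.37 and an edgeR adjusted p of 0.0213.

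H2-Aa, the partner alpha chain, had 1 and 2 counts in controls, 21 and 38 after light, and 12 and 16 with minocycline. The 3 groups did not overlap, with minocycline between the others. Its level was 0.106 ± 0.0493 CPM in controls, 1.52 ± 0.408 after light and 0.685 ± 0.230 with minocycline. The log2 fold change after light was 3.76 with a standard error of 0.66 and an edgeR adjusted p of 0.0131. On 3 control counts, the ratio of pooled levels was 14.6 with an exact 95% interval of 4.75 to 72.6, which covers counting error only, as do all such intervals here. The 2 I-A chains were unequal in these counts, which are not scaled for exon length, 2568 bases for H2-Ab1 and 3798 for H2-Aa. Whether strain differences from GRCm38 changed the counts of any class II gene was not tested. H2-Ab1 had 19.7 times the counts of H2-Aa in controls (exact 95% interval 6.41 to 98.1), 4.34 times after light (3.26 to 5.86) and 4.57 times with minocycline (3.02 to 7.15). The control interval does not overlap that of light and overlaps that of minocycline, and the difference between groups was not tested over libraries.

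H2-Eb1, the I-E beta chain, had 0 and 1 counts in controls, 13 and 13 after light, and 2 and 6 with minocycline. Again no group overlapped another, but control and minocycline were parted by 1 count against 2, both under the floor of 3 counts. Its level was 0.0352 ± 0.0498, 0.688 ± 0.1005 and 0.202 ± 0.163 CPM in the 3 groups. The log2 fold change after light was 4.02 with a standard error of 0.94 and an edgeR adjusted p of 0.0246, and the pooled ratio of 19.2 had an interval of 3.16 to 789, so its size is poorly fixed. With DESeq2 the call was lost (adjusted p = 0.155 without and 0.229 with shrinkage). In edgeR the estimate was 3.15 without control library 1 and 6.59 without control library 2. H2-Ea-ps, the annotated polymorphic pseudogene of the I-E alpha chain, had 1 and 3 counts in controls, 20 and 28 after light and 8 and 14 with minocycline. It rose by a log2 fold change of 3.08 (edgeR adjusted p = 0.0192), and it too passed the filter only through the light libraries.

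Cd74, the invariant chain, had 4 and 7 counts in controls, 32 and 49 after light and 21 in each minocycline library. These groups did not overlap, with minocycline between the others. The levels were 0.389 ± 0.148, 2.10 ± 0.323 and 1.01 ± 0.140 CPM. The log2 fold change after light was 2.42 with a standard error of 0.50 and an edgeR adjusted p of 0.0188.

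The H2-M genes were less clear. H2-DMa had 28 and 31 counts in controls, 56 and 114 after light and 66 and 40 with minocycline. Both light libraries were above the others in CPM, but light library 2 was 1.65 times light library 1. The levels were 2.09 ± 0.136, 4.34 ± 1.51 and 2.50 ± 0.533 CPM, and the log2 fold change of 1.06 with a standard error of 0.39 did not pass (edgeR adjusted p = 0.0975). H2-DMb1, its partner, had 0 counts in both controls, 4 and 1 after light and 1 in each minocycline library. Its mean level after light, 0.141 CPM, was under the floor of a control library, and the exact 95% interval of the pooled ratio of light over control began at 0.678, so no difference was detectable at this depth. It did not pass the filter on low counts, and with no filter edgeR gave adjusted p of 0.297 after light and 0.694 with minocycline against light. In GENCODE transcripts 22.7% of the 50-base words of H2-DMb1 also occur in H2-DMb2, which had 1 and 0, 1 and 4, and 0 and 2 counts, so reads could be split between the 2 genes.

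Ciita had 0 counts in both controls, 4 in each light library and 0 in both minocycline libraries. It was seen only after light in these libraries, at 0.212 ± 0.0309 CPM, at the floor of a control library, so no fold is given. In pooled counts, 8 after light against 0, the exact 95% interval of the ratio began at 1.26 for light over control and at 1.87 for light over minocycline. It did not pass the filter on low counts. With no filter, edgeR gave an adjusted p of 0.148 for light against control and 0.163 for minocycline against light, so it was called in neither.

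Per kilobase of exon, the order after light was H2-Ab1 at 2.59 ± 0.256 CPM per kb, H2-DMa at 1.26 ± 0.439, Cd74 at 1.25 ± 0.193, H2-Aa at 0.399 ± 0.108, H2-Eb1 at 0.354 ± 0.0517, H2-DMb1 at 0.0836 ± 0.0783 and Ciita at 0.0222 ± 0.00324. H2-DMa and Cd74 overlapped between libraries, as did H2-Aa and H2-Eb1, so the order within each pair is not set by these data. In controls H2-DMa, at 0.605 ± 0.0395 CPM per kb, stood above Cd74 at 0.231 ± 0.0879, with no overlap between the libraries.

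By position on GRCm38, H2-Ab1 (chr17:34257689-34269419), H2-Aa (chr17:34282744-34287823), H2-Eb1 (chr17:34305867-34316674), H2-DMa (chr17:34119541-34139101) and H2-DMb1 (chr17:34153072-34160230) lie together on chromosome 17. Ciita (chr16:10480059-10528418) lies on chromosome 16 and Cd74 (chr18:60803848-60812652) on chromosome 18. The span of H2-DMa overlaps the opposite-strand gene Brd2, which had 36826 counts over the 6 libraries, and that of Ciita overlaps Dexi, which had 1601. H2-Eb1 overlaps an antisense gene, Gm20513. The libraries were stranded, but whether counting used the strand is not given in the sources used here, so reads of such pairs may not be told apart.

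The second comparison, light with minocycline against light, asks what the drug changes in exposed retina. It tested 14750 genes and called 8, 6 lower and 2 higher, while 3117 had an unadjusted p under 0.05. No class II gene was called by edgeR, against a background of 0.0407% called lower. That background depended on the method, with 488 genes called in one edgeR fit of all 6 libraries, 732 with no filter and, in DESeq2, 1197 without and 1147 with shrinkage, and 0 class II genes were called in each of these. Of 5 class II genes tested, 4 had an unadjusted p under 0.05 with a lower level, beside 12.1% of all tested genes. H2-Eb1, one of the 4, passed the filter here only through the light libraries, where it was high. All 5 lay lower in both minocycline libraries than in both light libraries, as did 28.7% of tested genes, and their median log2 fold change was -1.14, beside 0.0062 over all tested genes.

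**Figure D2:**
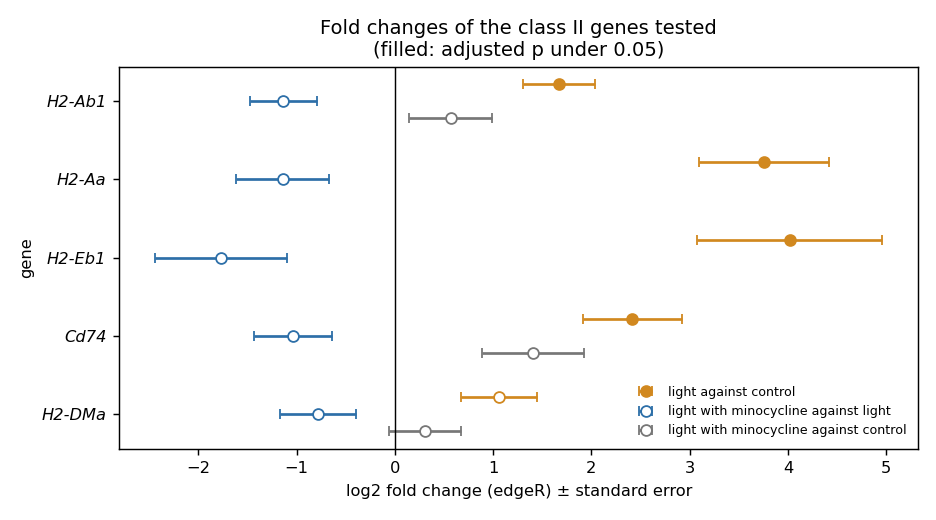
Log2 fold change (horizontal axis, edgeR estimate with bars of 1 standard error) of the 5 class II genes tested, in up to 3 pairwise comparisons. Filled points, which are H2-Ab1, H2-Aa, H2-Eb1 and Cd74 after light, have an adjusted p under 0.05, and the 5 points for light with minocycline against light lie between -1.77 and -0.78, all open.

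H2-Eb1 stood at -1.77 with a standard error of 0.67 (edgeR adjusted p = 0.195), an estimate that went from -1.06 without minocycline library A to -2.88 without library B, so no order among the genes is given. H2-Ab1 and H2-Aa had estimates of -1.14 each, with adjusted p of 0.131 and 0.225. Cd74 stood at -1.04 with a standard error of 0.40 (edgeR adjusted p = 0.198). H2-DMa stood at -0.78 with a standard error of 0.39 (edgeR adjusted p = 0.300). In counting error alone, H2-Ab1 was 2.19-fold lower (exact 95% interval 1.77 to 2.73) and Cd74 2.11-fold lower (1.44 to 3.15). H2-Ea-ps stood at -1.19 (edgeR adjusted p = 0.237).

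In the third comparison, light with minocycline against control, 14181 genes were tested and 23 were called by edgeR, all higher, or 0.162%, with 994 at an unadjusted p under 0.05. Of the class II genes 3 were tested and 0 were called, 1 of them with an unadjusted p under 0.05. This was Cd74, higher in both minocycline libraries than in both controls, with a log2 fold change of 1.40 and a standard error of 0.52 (edgeR adjusted p = 0.593). H2-Ab1 stood at 0.57 (adjusted p = 0.749) and H2-DMa at 0.31 (adjusted p = 0.803), and both overlapped between the groups. H2-Aa, too low to pass the filter, had 28 counts over the minocycline group against 3 over the controls, a pooled ratio of 6.30 with an exact 95% interval of 1.95 to 32.4. It was not called with no filter (edgeR adjusted p = 0.243) or in one fit of all 6 libraries (0.352).

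The levels can be set side by side as the share of the rise after light that was left with minocycline, the minocycline minus control difference in mean CPM over the light minus control difference. This was 41.1% for H2-Aa, 36.5% for Cd74, 25.6% for H2-Eb1, 19.7% for H2-Ab1 and 18.1% for H2-DMa. For the sum of the 7 genes it was 24.9%, and 18.5% to 31.4% when 1 library was left out. H2-Aa and Cd74 kept the highest shares, and their ranges over left-out libraries, 29.5% to 52.6% and 30.7% to 42.4%, overlapped those of H2-Ab1 (4.13% to 35.3%), H2-DMa (1.44% to 34.9%) and H2-Eb1 (7.94% to 43.3%).

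Class II transcripts were then compared with 12 markers of microglia. In bulk tissue fewer cells of a type and less RNA per cell cannot be told apart. All 12 markers were tested after light and 6 rose, against 7.52% of tested genes. Of the 6, Fcrls and Sall1 passed the filter only through the light libraries, at log2 fold changes of 3.92 and 2.44. Cx3cr1, the fractalkine receptor, rose by 3.82, and P2ry12, a purine receptor of resting microglia, by 1.73. The median of the list was 3.09 after light, and -2.84 with minocycline against light, where 0 of 12 passed in edgeR. Between the light libraries, library 2 over library 1 had a median CPM ratio of 2.76 over the 12 markers (1.39 to 3.41) and of 1.24 over the 5 class II genes tested (0.813 to 1.65). The ratio was above 1.5 for 11 of 12 markers and 1 of 5 class II genes, and its median was 1.58 over the 1079 genes called higher after light.

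**Figure D3:**
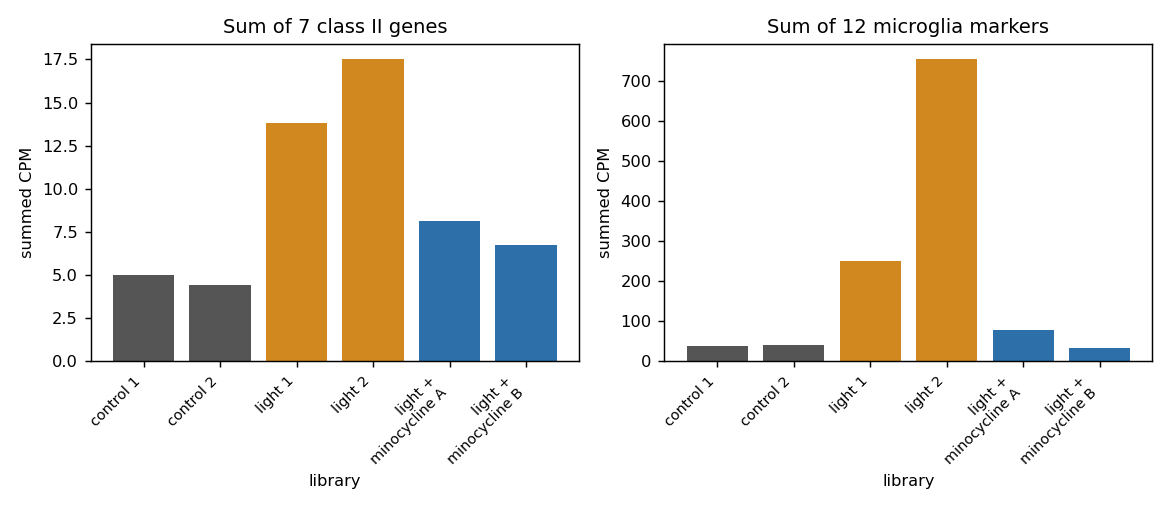
Summed CPM of the 7 class II genes (left) and of 12 microglia markers (right) in each of the 6 libraries, with separate linear axes that start at 0. From light library 1 to light library 2 the class II sum goes from 13.8 to 17.5 CPM and the marker sum from 250.8 to 756 CPM.

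The log2 of the class II sum minus the mean log2 CPM of the markers was 1.07 and 0.99 in controls, 0.50 and -0.48 after light, and 1.05 and 1.70 with minocycline. Per unit of marker signal class II transcripts were thus lower in both light libraries than in the other 4. This rested on the markers chosen. The list was split by alphabet into 2 parts of 6. With Aif1, C1qa, C1qb, Csf1r, Cx3cr1 and Fcrls alone the light libraries stood at -0.35 and -1.54, below the other 4. With Gpr34, Olfml3, P2ry12, Sall1, Siglech and Tmem119 alone they stood at 1.34 and 0.58, where light library 1 lay among the other groups. With 2 libraries against 2, an exact two-sided permutation test cannot give a p below 0.333, and none was run.

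The share of the rise left with minocycline had a median of 3.03% over the 12 markers, against 25.6% over the 5 class II genes. Among other listed genes called higher after light, Cd274 stood at 38.9% and the cathepsin gene Ctsl at 22.2%. The transcription factor gene Irf1 stood at 16.0%, Ifi30 at 10.5%, Cd86 at 5.68% and Sfpi1 at 3.27%, all below the 5 class II genes. With 1 library left out Ctsl ranged from 15.7% to 37.8%. The other class II genes, with at most 4 counts a library, stood at 34.3% for H2-DMb1 and 0% for Ciita, which had no count with minocycline, and are left out of this comparison. Of the 12 markers 10 lay below the lowest of the 5 class II genes. The others were Tmem119 at 19.5% and Siglech, which was not called after light (log2 fold change 0.30, edgeR adjusted p = 0.688) and whose share of 155% has little meaning. Csf1r, the receptor for the growth factor of macrophages, stood at 3.57%, C1qa, a complement subunit, at 3.23%, and Cx3cr1 at 1.36%. With 1 library left out these ranged from -2.47% to 9.61%, from -0.64% to 7.55% and from -2.50% to 5.21%, so their sign is not fixed. Leaving out 1 library at a time, the marker median ranged from -1.86% to 7.54% and the class II median from 28.2% to 42.4%, while the number of markers below the lowest of the 5 class II genes ranged from 6, without minocycline library B, to 11. This difference was not tested over libraries, as both shares use the same controls and light libraries.

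**Figure D4:**
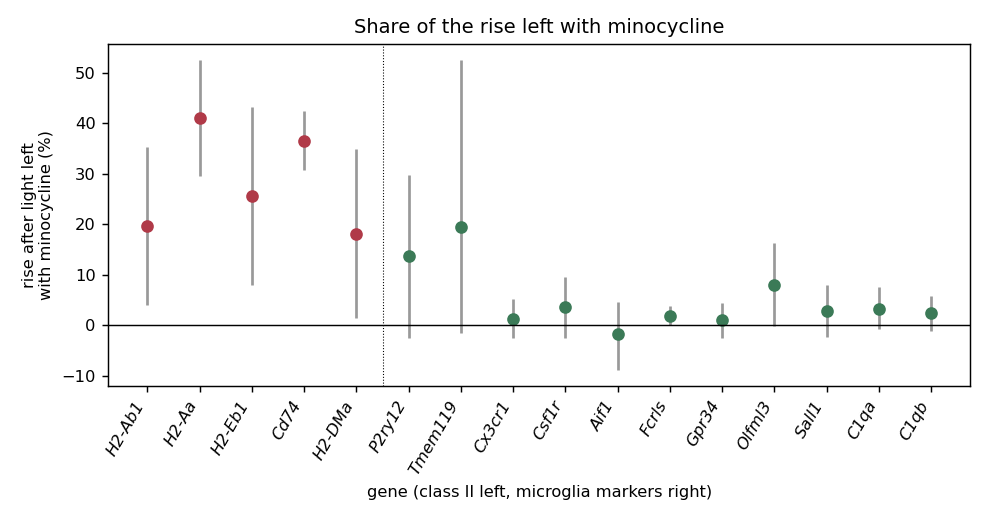
Share of the rise after light left with minocycline (vertical axis, percent, points) for 5 class II genes and 11 microglia markers, with lines from the lowest to the highest value when 1 library is left out. Class II genes lie between 18.1% and 41.1% and the markers between -1.61% and 19.5%, with lines that overlap for P2ry12 and Tmem119 most; Siglech, at 155%, is not drawn.

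Genes that act upstream of class II were examined from lists of known roles. Of 9 genes of the interferon gamma path to Ciita, 8 were tested after light and 3 rose, against the background of 7.52% of all tested genes. Irf1, a transcription factor of the Ciita promoter, went from 41 and 37 counts in controls to 133 and 239 after light, and stood at 82 and 78 with minocycline. Its log2 fold change after light was 1.80 (edgeR adjusted p = 0.0132). Ifngr2, a chain of the interferon gamma receptor, rose by 0.89 (adjusted p = 0.0383). Sfpi1, the gene of the myeloid factor PU.1, rose by 3.73 (adjusted p = 0.0173), having passed the filter only through the light libraries. Ifng itself was at 0 counts in all 6 libraries.

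No factor that binds class II promoters passed the test as higher after light. Of 7 tested, 0 were higher and 1 was lower in edgeR, against 7.52% and 3.8% of tested genes, and their median log2 fold change was -0.33. Creb1, a factor of the X2 box, fell by 0.72 on the log2 scale (edgeR adjusted p = 0.0163). Rfx5, a subunit of the RFX complex, stood at 0.49 (adjusted p = 0.119), and Nfyc, a subunit of NF-Y, at -0.50 (adjusted p = 0.0977). None of these factors passed with minocycline against light or against control.

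Of 6 genes of endosomal processing tested, 2 rose and 1 fell after light, against 7.52% of tested genes called higher and 3.8% called lower. Their median was 1.25, beside 0.0025 over all tested genes. Ctsl, a cathepsin that cuts Cd74, rose by 1.88 (edgeR adjusted p = 0.0246). Ifi30, a thiol reductase that unfolds antigen, rose by 1.66 (adjusted p = 0.0141). March1, a ubiquitin ligase that removes class II from the surface, fell by 0.57 on the log2 scale (edgeR adjusted p = 0.0489). Ctss, the cathepsin that cuts Cd74 in many antigen-presenting cells, went from 15.9 and 15.6 CPM in controls to 62.4 and 184 CPM after light, and its log2 fold change of 2.97 with a standard error of 0.70 did not pass (edgeR adjusted p = 0.114).

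Of 6 costimulation genes 3 were tested after light and 2 rose, against 7.52% of tested genes. Cd86, the ligand of CD28, had 2 and 7 counts in controls, 31 and 78 after light and 10 and 9 with minocycline, and rose by 3.10 (edgeR adjusted p = 0.0169). It also passed the filter only through the light libraries. Cd274, the inhibitory ligand PD-L1, rose by 1.63 (adjusted p = 0.0294). Cd80 had at most 2 counts in any library, and Cd40 had 4 and 3, 2 and 14, and 12 and 2 counts. The share of the rise left with minocycline was 38.9% for Cd274 and 5.68% for Cd86, so these 2 genes lay apart, with ranges over left-out libraries of 29.9% to 49.8% and -1.63% to 12%. Of the endosomal, interferon path and costimulation genes, 0 passed with minocycline against light in edgeR.

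Markers of other cells that carry class II were read in the same way. Of 9 dendritic cell markers 3 were tested after light and 0 passed, and their sum ran from 3.66 to 4.76 CPM in controls, 5.84 to 9.07 after light and 2.97 to 4.96 with minocycline. Within it Itgax, the gene of CD11c, had 1 and 6 counts in controls, 17 and 102 after light and 6 and 2 with minocycline. The B cell marker Ms4a1, the T cell marker Cd3e and the dendritic cell marker Cd209a were at 0 in every library. B cell markers summed to 0.479 to 1.61 CPM and T cell markers to 2.46 to 5.27 CPM over the 6 libraries, and 0 of the 1 gene tested in each list passed. Monocyte and macrophage markers went from 3.20 and 4.44 CPM in controls to 151 and 569 CPM after light and to 10.6 and 6.57 CPM with minocycline. Lyz2, the lysozyme gene that microglia and other macrophages can also express, made up 147 and 553 CPM of the light sums. Of these 8 markers 3 were tested and 0 passed. Ms4a7, a macrophage membrane protein gene, had 0 counts in both controls, 38 and 288 after light and 3 and 4 with minocycline, and did not pass (edgeR adjusted p = 0.177). Ly6c2, a marker of inflammatory monocytes, had 6 and 2 counts in controls, 4 and 3 after light and 6 and 3 with minocycline, and Plac8 and Cd163 had at most 3 counts in any control or light library. With minocycline, Plac8 had 9 and 27 counts and Cd163 4 and 6, their highest values. Lyz2 had a log2 fold change of 6.82 (edgeR adjusted p = 0.0814), and Ccr2, the chemokine receptor of inflammatory monocytes, had 0 and 0 counts in controls, 10 and 12 after light, and 1 and 0 with minocycline. The part of any of these cells in the class II levels was not tested. Retinal identity was clear in every library, with 29973 to 74589 CPM summed over 8 markers of retinal neurons and Müller glia.

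H2-Ob, the beta chain of the H2-O modulator of H2-M, had 1 and 3 counts in controls, 2 and 22 after light and 3 and 0 with minocycline, so light library 2 alone was high. H2-Oa and H2-Eb2 had 1 count each over the 6 libraries.

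The genes whose pattern over the 6 libraries was most like that of Cd74 were found by the root mean square difference of log2 CPM, each gene centred on its own mean, over 14712 other genes. The nearest were Pdk4 at 0.165, Entpd1 at 0.200, St14 at 0.205, Akr1c13 at 0.217 and Plin3 at 0.218 (log2 units). H2-Ea-ps was in place 7, H2-Aa in place 61, H2-Eb1 in place 62, H2-Ab1 in place 502 and H2-DMa in place 633. These places depended on the prior count of 2, which draws low genes together. With a prior count of 0.5, chosen after seeing the data, Pdk4, Entpd1 and St14 were again the nearest, but H2-Ea-ps moved to place 45, H2-Aa to 251 and H2-Eb1 to 1372, while H2-Ab1 stood in place 504 and H2-DMa in place 666. No order among H2-Eb1, H2-Ab1 and H2-DMa is therefore given.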

How the data were processed

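RNA was prepared from retinas, and the authors made stranded poly-A libraries, sequenced 50-cycle single reads, and used RNA Express, with STAR, to align them to mm10 (GRCm38) and count them per gene. The deposited table holds counts per gene, whole numbers without normalization, although the data statement of the study calls them normalized. Versions, annotation and use of strand in counting are not given in the sources used here. No value column was left unused (0), and 4791 of 23420 genes were at 0 in every library.

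Groups were compared in pairs in R 4.3.3 with edgeR 4.0.16, using filterByExpr, TMM factors and its robust quasi-likelihood test, and p-values were adjusted by Benjamini-Hochberg over all tested genes, with calls at 0.05. Scripts were tested on simulated data. CPM used TMM-scaled library sizes, and log2 CPM a prior count of 2. Ratios of pooled counts have exact conditional binomial intervals at 95%. DESeq2 1.42.0 was an alternative, with other normalizations, filters and left-out libraries. The 7 genes, all gene lists and the motif letters were chosen with earlier results of these data known, and the X box core was shortened after the promoters had been seen. Genes named are the 7 genes, the genes closest to Cd74 by rule and members of the lists. Exon lengths, positions and shared words came from GENCODE vM21 for GRCm38. Promoters of 4 of the 7 genes were in the RefSeq table. Sfpi1 is the symbol of Spi1 in the table. P-values measure the spread between 2 libraries a group.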

Additional observations from a re-analysis of the deposited data

How the results depend on the processing

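After light, 4 class II genes were called. With at least 10 counts required in every library, 1 was called, since only 2 of the 7 could be tested, and with DESeq2 and shrinkage 2 were called, H2-Ab1 and H2-Aa; H2-Eb1 was lost in both DESeq2 fits (adjusted p = 0.155 and 0.229) and Cd74 with shrinkage (0.0505), and the cause was not tested. Leaving out 1 library gave 0 to 4 calls: 0 without control 1 or without control 2, where the whole table gave 4 and 57 calls in place of 1624, 2 without light 2 and 4 without light 1, where H2-DMa was called and H2-Eb1 could not be tested. The lone library of a group was then assumed to vary like the other group. In the other settings run the number was 3 to 5. The log2 fold changes of tested class II genes kept their sign in every setting run, but DESeq2 with shrinkage lowered those after light to 0.88 for H2-Aa, 0.46 for H2-Eb1 and 0.88 for Cd74, from 3.76, 4.02 and 2.42. In all, 0 class II genes were called in either minocycline comparison under any setting run. Total library size moved the median of all genes by light to 0.24 and with minocycline against light to -0.17, from 0.0025 and 0.0062. Control and light libraries share the numbers 1 and 2 in the labels, but their deviations did not go together (r = -0.0079 over 14349 genes). This value cannot decide whether the numbers pair the samples, since control libraries 1 and 2 also differed in sex. With the replicate block, 4 class II genes were called and 2525 genes in all. For minocycline, no paired analysis was possible because both columns carry the same number. With 2 libraries a group, outlying samples could not be tested. Values of H2-Eb1, H2-DMb1 and Ciita rest on few counts, which limits them to wide intervals.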
